A study of Mus musculus with 17 samples.

Results

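Complement is a cascade of secreted proteins with receptors and regulators on cell surfaces. It is described here through 9 genes, C1qa, C1qb, C1qc, C4b, C3, C3ar1, C5ar1, Serping1 and Cd55, chosen by name as components, receptors or regulators of the cascade, out of 42687 genes counted. All 9 were among the 18753 genes that passed the filter on low counts. RNA had been sequenced from microvessels isolated from the cerebral cortex of mice. The labels give the fraction as endothelial cells, pericytes and astrocyte endfeet, so blood vessels with the cell parts attached to them rather than sorted cells.

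Mice aged 10 to 11 months were either wild type (WT) or APP/PS1, an amyloid model of Alzheimer's disease. The labels do not give the line or the promoter of its transgenes. All of them received a peptide, 10 mg/kg by intraperitoneal injection at intervals of 2 days over 2 weeks. Some received gp91-ds-tat, which inhibits the superoxide-producing oxidase NOX2, and the others the control sgp91-ds-tat. The labels shorten these to NOX2 and SC, and no group went without injection. The WT libraries numbered 5 with control peptide (WT_SC) and 5 with inhibitor (WT_NOX2). The APP/PS1 libraries numbered 2 with control peptide (APP_SC) and 5 with inhibitor (APP_NOX2). Replicate numbers within a group only name libraries. The labels do not say whether each library came from 1 animal, and p-values measure the spread between these libraries.

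In the classical pathway, the recognition molecule C1q, built from the products of C1qa, C1qb and C1qc, binds a target and starts cleavage of C4 and then of C3, the protein on which all pathways meet. Fragments of C3 tag particles for uptake, and the small fragments C3a and C5a act on the receptors encoded by C3ar1 and C5ar1. Serping1 encodes the inhibitor of the C1 proteases, and Cd55 encodes a membrane protein that speeds the decay of the enzymes that cleave C3. In brain, C1q comes mostly from microglia and other macrophages, while C4 is made largely by glia, and the pathway is known for the tagging of synapses that microglia remove.

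Total counts were between 7316503 and 17862965 per library, with a median of 11342154. App ranged from 1260 to 2230 CPM (read counts relative to library size) in WT and from 1900 to 3330 CPM in APP/PS1, and the genotypes overlapped. Prnp, whose promoter drives some APP transgenes, ranged from 301 to 555 CPM in WT and from 682 to 1420 CPM in APP/PS1, with no overlap. Endothelial markers summed to between 2020 and 3940 CPM and pericyte and smooth muscle markers to between 813 and 1420 CPM, so the defining genes of the labelled cells were present in every library. Markers of other cells were present too, with neuronal markers at 2470 to 4160 CPM and choroid plexus markers at 29.4 to 8100 CPM.

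Neighbouring genes encode the chains of C1q, and they rose together in APP/PS1. All 3 lie on the minus strand of chromosome 4 within 18675 bp of the mouse assembly GRCm38 (GENCODE vM21): C1qb (ENSMUSG00000036905) at chr4:136880129-136886187, C1qc (ENSMUSG00000036896) at chr4:136889804-136893065 and C1qa (ENSMUSG00000036887) at chr4:136895917-136898803. The RefSeq promoter table of assembly GRCm38.p6 matched 6 of the 9 genes, namely C1qb, C1qc, C3, C3ar1, C5ar1 and Cd55. The sequence upstream of the annotated start is shown for the 3 of these that rose in APP/PS1. Each is written 5′ to 3′ on the strand of the gene, and capitals mark GAGGAA, the purine-rich core bound by the myeloid factor PU.1, or its reverse complement.
C1qb, chr4:136886201-136886450, minus strand: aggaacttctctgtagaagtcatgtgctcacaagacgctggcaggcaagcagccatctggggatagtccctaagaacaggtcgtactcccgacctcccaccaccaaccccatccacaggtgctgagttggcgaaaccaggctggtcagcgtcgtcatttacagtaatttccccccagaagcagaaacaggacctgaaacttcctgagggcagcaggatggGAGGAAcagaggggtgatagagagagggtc
C1qc, chr4:136893066-136893164, minus strand: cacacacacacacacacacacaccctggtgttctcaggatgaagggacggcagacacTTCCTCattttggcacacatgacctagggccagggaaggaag
C3ar1, chr6:122856162-122856407, minus strand: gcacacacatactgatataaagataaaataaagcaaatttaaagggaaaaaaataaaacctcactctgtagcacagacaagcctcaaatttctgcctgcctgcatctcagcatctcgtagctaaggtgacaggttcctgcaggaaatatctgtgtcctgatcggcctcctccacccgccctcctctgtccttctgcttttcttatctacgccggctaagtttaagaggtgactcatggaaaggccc
Bases that lie inside the GENCODE vM21 gene were not printed, so 99 bases are shown for C1qc, whose RefSeq start lies inside that gene. Motif positions are counted from the RefSeq start, not from the end of the printed stretch. In the 250 bases before the RefSeq start, searched on both strands, C1qb held GAGGAA with its first base at position -30 and C1qc held the reverse complement at position -193. C3ar1, C3, C5ar1 and Cd55 held none. Of 32851 promoter windows of the same length, 23.3% held this motif, so a match is common. TTGCNNAA, a C/EBP-type motif found in 9.56% of windows, was found in the window of C3 at position -45 and in no other of the 6. TTCNNNGAA, a STAT-type motif found in 7.02% of windows, was found in none of the 6.

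C1qa stood at 30.0, 19.8, 18.2, 23.1 and 19.5 CPM in the 5 libraries of WT with control peptide, and at 26.8, 20.7, 24.8, 22.2 and 18.4 CPM in WT with inhibitor. It stood at 36.6 and 48.0 CPM in APP/PS1 with control peptide and at 26.7, 47.8, 27.9, 34.8 and 55.5 CPM in APP/PS1 with inhibitor. Of the 7 APP/PS1 libraries, 5 lay above every WT library, and replicates 1 and 3 of APP/PS1 with inhibitor fell inside the WT range. The mean was 22.4 ± 3.89 CPM (SD, n = 10) in WT and 39.6 ± 11.0 CPM (SD, n = 7) in APP/PS1. In an edgeR model with terms for genotype and peptide, C1qa rose 1.78-fold in APP/PS1 (log2 change 0.83 ± 0.15 SE, adjusted p = 0.00559), with a fold of 1.45 to 2.18 at 2 SE either side.

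C1qb stood at 37.2, 18.4, 16.6, 22.2 and 20.4 CPM in WT with control peptide and at 26.0, 29.7, 29.3, 20.4 and 16.8 CPM in WT with inhibitor. It stood at 42.5 and 42.7 CPM in APP/PS1 with control peptide and at 31.4, 46.9, 31.7, 31.4 and 51.9 CPM in APP/PS1 with inhibitor. Replicate 1 of WT with control peptide, at 37.2 CPM, was above 3 APP/PS1 libraries, and the other WT libraries were below all 7. The means were 23.7 ± 6.71 CPM (SD, n = 10) in WT and 39.8 ± 8.35 CPM (SD, n = 7) in APP/PS1, a rise of 1.67-fold (log2 change 0.74 ± 0.16 SE, edgeR adjusted p = 0.0383). In 17 fits that left out 1 library each, its adjusted p ran from 0.00438 to 0.149, and the call was lost in 11 of them. These were the fits without replicate 2, 3, 4 or 5 of WT with control peptide, replicate 1, 4 or 5 of WT with inhibitor, either library of APP/PS1 with control peptide, or replicate 2 or 5 of APP/PS1 with inhibitor.

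C1qc stood at 30.5, 22.7, 23.0, 30.4 and 20.9 CPM in WT with control peptide and at 29.7, 26.1, 29.3, 26.6 and 20.8 CPM in WT with inhibitor. It stood at 39.3 and 47.6 CPM in APP/PS1 with control peptide and at 30.5, 52.0, 34.7, 35.8 and 61.0 CPM in APP/PS1 with inhibitor. The one APP/PS1 library not above every WT library was replicate 1 of the inhibitor group. The means were 26.0 ± 3.90 CPM (SD, n = 10) in WT and 43.0 ± 10.9 CPM (SD, n = 7) in APP/PS1, a rise of 1.65-fold (log2 change 0.72 ± 0.13 SE, edgeR adjusted p = 0.00878). Without replicate 2 of APP/PS1 with control peptide, the adjusted p of C1qc was 0.0558 and that of C1qb 0.149, while C1qa stayed past the threshold in all 17 such fits, with adjusted p from 0.00186 to 0.0412.

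The chains kept similar proportions across libraries. Of the summed C1q level in a library, C1qa made up 27.1% to 34.7% (median 32.0%), C1qb 28.7% to 38.8% (median 31.5%) and C1qc 31.2% to 40.1% (median 35.4%). Scaled to exon length, the mean level over all 17 libraries was 28.3 ± 11.0 CPM per kb (SD) for C1qa and 27.9 ± 9.99 CPM per kb for C1qb, which did not differ beyond their spread, and 17.1 ± 5.84 CPM per kb for C1qc. With group means removed, C1qa and C1qc varied together from library to library (r = 0.94 over 17 libraries). Of the other genes tested that have a proper name, none was more like C1qa. However, Mindy1 (r = 0.97) and Robo4 (r = 0.95) were more like C1qc than C1qa was. The pair of C1qa and C1qb gave r = 0.81 and that of C1qb and C1qc r = 0.78. Genes outside the complement set were more like C1qa than C1qb was, and more like C1qb than C1qc was. These correlations describe libraries that share preparation and depth effects.

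**Figure D1:**
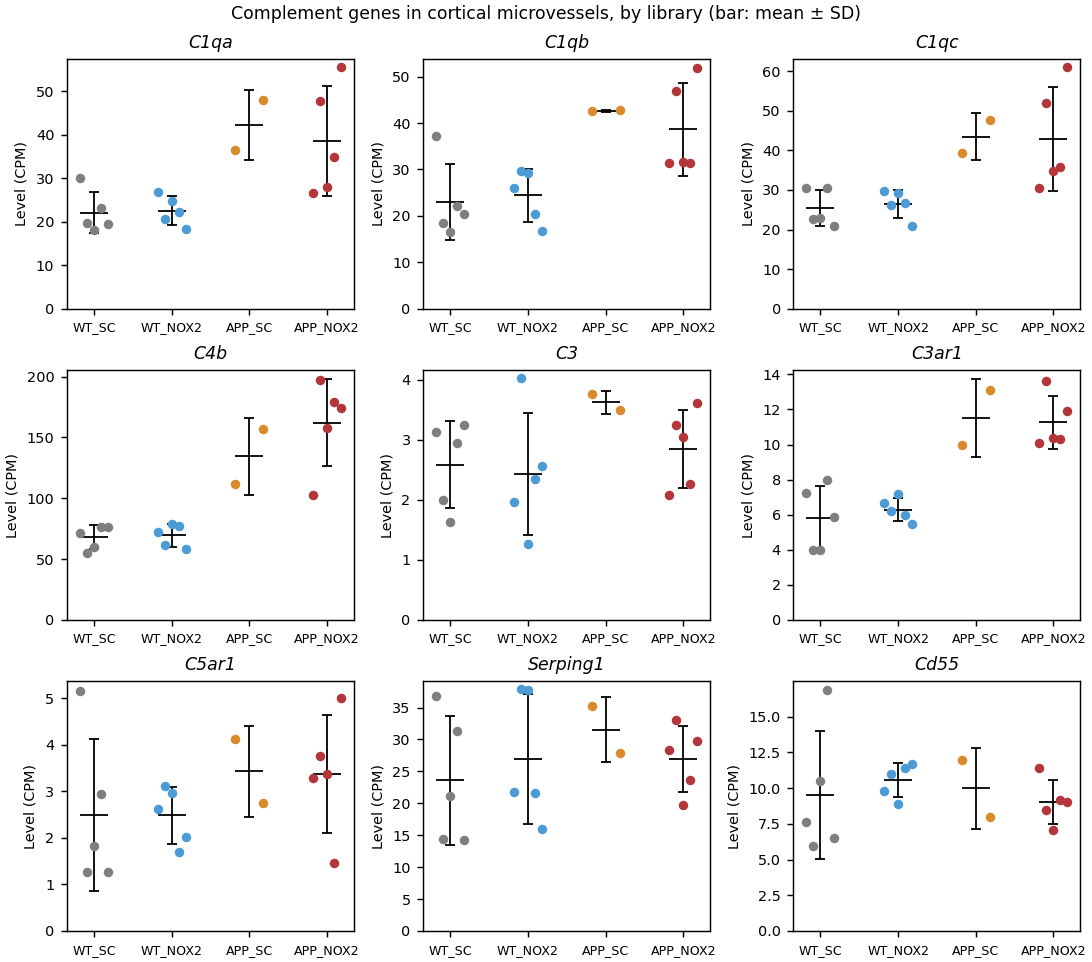
Level of each of the 9 genes in CPM on TMM-scaled library sizes (vertical axes, from 0), 1 point per library in the 4 groups, WT or APP/PS1 (APP) with control peptide (SC) or inhibitor (NOX2); bars are the mean ± SD. Every APP/PS1 point of C4b and C3ar1 lies above every WT point, most do for C1qa, C1qb and C1qc, and the groups overlap for C3, C5ar1, Serping1 and Cd55.

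C4b, which encodes complement C4, the substrate of the C1 proteases, showed the largest change of the 9. Its values were 71.0, 55.0, 59.8, 76.7 and 76.3 CPM in WT with control peptide and 72.3, 61.2, 79.1, 77.2 and 58.0 CPM in WT with inhibitor. In APP/PS1 they were 112 and 157 CPM with control peptide and 103, 197, 158, 179 and 174 CPM with inhibitor. The lowest APP/PS1 library, at 103 CPM, was above the highest WT library, at 79.1 CPM. Of all genes tested, 0.267% had every APP/PS1 library above every WT library, 50 genes in all, and C4b and C3ar1 were the members among them. C4b averaged 68.7 ± 9.17 CPM (SD, n = 10) in WT and 154 ± 34.8 CPM (SD, n = 7) in APP/PS1 and rose 2.20-fold (log2 change 1.14 ± 0.12 SE, edgeR adjusted p = 2.19e-05), with a fold of 1.86 to 2.61 at 2 SE either side. It remained past the threshold in each of the 17 fits without 1 library.

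C4b (ENSMUSG00000073418, chr17:34728380-34743882 in GRCm38) has a near-identical neighbour, C4a (chr17:34809092-34823464), which GENCODE vM21 lists as a processed transcript. C4a was counted at 6.01 ± 1.14 CPM (SD, n = 10) in WT and 5.84 ± 1.04 CPM (SD, n = 7) in APP/PS1, with a log2 change of -0.08. How the authors' counting divided reads that match both copies is not given in the sources used here, so both levels are uncertain.

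C3, the central component, had few reads, with 14 to 62 counts per library, above the 3 counts taken as the smallest measurable level. Its values were 3.12, 1.99, 1.63, 2.95 and 3.24 CPM in WT with control peptide and 1.96, 4.02, 1.26, 2.34 and 2.56 CPM in WT with inhibitor. In APP/PS1 they were 3.76 and 3.49 CPM with control peptide and 2.08, 3.25, 3.04, 2.27 and 3.61 CPM with inhibitor. The highest library of all was a WT library, and the genotypes overlapped throughout. C3 averaged 2.51 ± 0.839 CPM (SD, n = 10) in WT and 3.07 ± 0.657 CPM (SD, n = 7) in APP/PS1 and was not called (log2 change 0.31 ± 0.21 SE, edgeR adjusted p = 0.905). The fold at 2 SE either side ran from 0.93 to 1.65, and its upper end equals the fold of C1qc. Per kb of exon, C3 had the lowest mean level of the 9 genes, 0.533 ± 0.156 CPM per kb (SD, 17 libraries), against 18.3 ± 8.59 CPM per kb for C4b.

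C3ar1 encodes the receptor for C3a, which in brain is found mainly on microglia and other myeloid cells. It stood at 7.23, 3.98, 3.96, 7.95 and 5.86 CPM in WT with control peptide and at 6.64, 6.22, 7.18, 5.98 and 5.44 CPM in WT with inhibitor. In APP/PS1 it stood at 9.95 and 13.1 CPM with control peptide and at 10.1, 13.6, 10.4, 10.3 and 11.9 CPM with inhibitor. The 7 APP/PS1 libraries were all above the 10 WT libraries, and the gap ran from 7.95 to 9.95 CPM. The mean was 6.04 ± 1.32 CPM (SD, n = 10) in WT and 11.3 ± 1.52 CPM (SD, n = 7) in APP/PS1, a rise of 1.85-fold (log2 change 0.89 ± 0.13 SE, edgeR adjusted p = 0.00126) that was called in each of the 17 fits without 1 library.

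C5ar1, which encodes the receptor for C5a carried by neutrophils and other myeloid cells, had 12 to 89 counts per library and was not called. Its values were 5.15, 1.26, 1.83, 2.95 and 1.26 CPM in WT with control peptide and 2.62, 3.11, 2.96, 1.69 and 2.02 CPM in WT with inhibitor. In APP/PS1 they were 4.12 and 2.74 CPM with control peptide and 3.29, 3.76, 3.37, 1.45 and 5.00 CPM with inhibitor. The highest value and the lowest were both in WT with control peptide. The means were 2.48 ± 1.17 CPM (SD, n = 10) and 3.39 ± 1.11 CPM (SD, n = 7), a log2 difference of 0.42 ± 0.27 SE (edgeR adjusted p = 0.897), with a fold of 0.92 to 1.95 at 2 SE either side. Its ligand comes from C5, encoded by Hc, which at 0.319 CPM was removed by the filter on low counts.

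Serping1, the C1 inhibitor, and Cd55, the decay-accelerating factor, were not called. Serping1 stood at 36.8, 14.4, 21.2, 31.3 and 14.3 CPM in WT with control peptide, at 21.8, 37.9, 37.7, 21.6 and 15.9 CPM in WT with inhibitor, at 35.2 and 27.9 CPM in APP/PS1 with control peptide and at 28.4, 33.1, 19.8, 23.7 and 29.7 CPM in APP/PS1 with inhibitor. Both the 3 highest and the 3 lowest libraries were WT. Its WT mean was 25.3 ± 9.73 CPM (SD, n = 10) and its APP/PS1 mean 28.3 ± 5.28 CPM (SD, n = 7), a log2 difference of 0.15 ± 0.21 SE (edgeR adjusted p = 0.987). The WT libraries above 30 CPM were replicates 1 and 4 with control peptide and 2 and 3 with inhibitor. Their summed perivascular macrophage markers were 86.5, 78.8, 62.9 and 113 CPM, in a WT range of 38.6 to 113 CPM. The other WT libraries had sums of 38.6, 52.5 and 51.5 CPM with control peptide and 63.7, 61.1 and 45.9 CPM with inhibitor. In the WT libraries above 30 CPM, in the same order, fibroblast markers summed to 255, 342, 298 and 308 CPM, in a WT range of 195 to 342 CPM. The APP/PS1 library with the most Serping1, replicate 1 with control peptide, had a macrophage sum of 55.2 CPM, in an APP/PS1 range of 41.5 to 81.5 CPM. The part of these markers in the spread of Serping1 was not tested.

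Cd55 stood at 7.64, 5.97, 10.5, 16.9 and 6.49 CPM in WT with control peptide, at 9.82, 11.0, 8.89, 11.4 and 11.7 CPM in WT with inhibitor, at 12 and 7.98 CPM in APP/PS1 with control peptide and at 11.4, 8.49, 7.06, 9.16 and 9.01 CPM in APP/PS1 with inhibitor. The highest library, replicate 4 of WT with control peptide, also had the highest sum of choroid plexus markers, 8100 CPM. Its sum of pericyte and smooth muscle markers, 1420 CPM, was also the highest. Its sums of endothelial (3720 CPM) and fibroblast (342 CPM) markers were the highest in WT. The part of any of these markers in the spread of Cd55 was not tested. Cd55 averaged 10.0 ± 3.14 CPM (SD, n = 10) in WT and 9.31 ± 1.80 CPM (SD, n = 7) in APP/PS1, a log2 difference of -0.10 ± 0.18 SE (edgeR adjusted p = 0.992). Its near copy Cd55b was counted at 0.147 CPM and was removed by the filter.

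The order of mean levels per kb of exon differed between the genotypes. In WT it was C1qb at 21.8 ± 6.17, C1qa at 21.5 ± 3.74, C1qc at 13.5 ± 2.02, C4b at 12.1 ± 1.61, Serping1 at 10.9 ± 4.19, Cd55 at 2.06 ± 0.647, C3ar1 at 1.40 ± 0.307, C5ar1 at 0.966 ± 0.454 and C3 at 0.488 ± 0.163 CPM per kb (SD, n = 10). Of neighbours in this order, C1qb and C1qa, C1qc and C4b, C4b and Serping1, and C3ar1 and C5ar1 differed by less than the larger of their SDs. In APP/PS1 it was C1qa at 38.1 ± 10.6, C1qb at 36.6 ± 7.67, C4b at 27.1 ± 6.12, C1qc at 22.3 ± 5.65, Serping1 at 12.2 ± 2.27, C3ar1 at 2.64 ± 0.353, Cd55 at 1.92 ± 0.371, C5ar1 at 1.32 ± 0.434 and C3 at 0.597 ± 0.128 CPM per kb (SD, n = 7). There C1qa and C1qb, and C4b and C1qc, differed by less than the larger of their SDs. In both genotypes the SDs measure spread between libraries, and whether pairs of genes kept their order within each library was not tested. C4b stood below C1qc in WT and above it in APP/PS1, and C3ar1 stood below Cd55 in WT and above it in APP/PS1. The exon lengths are those of GENCODE vM21.

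Over both peptides, 5 of the 9 genes were called higher in APP/PS1 and 0 lower, where 0.56% of all genes tested were called higher. The median log2 change was 0.72 over the 9 genes and 0.00 over all genes. It was 0.02 over 30 other complement genes tested, and the 9 were chosen with earlier results of these data known. The 5 were 3 chains of C1q, C4b and 1 receptor, and the other 4 were C3, C5ar1 and the regulators Serping1 and Cd55. The number called was 3 without replicate 2 of APP/PS1 with control peptide, where C1qa, C4b and C3ar1 remained.

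In mice given the control peptide alone, 0 of the 9 genes passed the threshold by edgeR and 5 had an unadjusted p under 0.05, with 0.0533% of all genes called higher and 3.97% of all genes at an unadjusted p under 0.05. The 5 were again C1qa, C1qb, C1qc, C4b and C3ar1, with log2 changes of 0.93, 0.88, 0.76, 0.99 and 0.97. The smallest edgeR adjusted p was that of C4b, 0.083, and C3ar1 followed at 0.171. DESeq2 called C4b (adjusted p = 0.00663) and C3ar1 (adjusted p = 0.0312) in this comparison, which has 2 APP/PS1 libraries. In mice given the inhibitor, C4b was called (log2 change 1.22 ± 0.16 SE, edgeR adjusted p = 0.000617), where 0.176% of all genes were called higher. There C1qa, C1qb, C1qc and C3ar1 had log2 changes of 0.77, 0.66, 0.69 and 0.84 and were not called by edgeR, with adjusted p of 0.229, 0.769, 0.238 and 0.068. DESeq2 called C4b, C1qa (adjusted p = 0.0334), C1qc (adjusted p = 0.0421) and C3ar1 (adjusted p = 0.00286) with inhibitor.

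The NOX2 inhibitor gave no call among the 9 genes in either genotype. By edgeR, 0 of 18753 genes were called in WT, in APP/PS1 or in the interaction, a background of 0.0% in each, and DESeq2 called 0 of the 9 in each. None of the 9 had an edgeR unadjusted p under 0.05. Of all genes tested, 1.34% had one in WT, 1.8% in APP/PS1 and 0.843% in the interaction, so 0 of the 9 is near the background. The smallest among the 9 was 0.501 in WT, 0.196 in APP/PS1 and 0.361 in the interaction, which is the inhibitor difference in APP/PS1 minus that in WT. In WT, the folds of inhibitor against control peptide at 2 SE either side ran from 0.78 to 1.33 for C1qa, from 0.83 to 1.27 for C4b and from 0.83 to 1.38 for C3ar1. For C3 and C5ar1 the same ranges were wider, 0.65 to 1.38 and 0.58 to 1.60. In APP/PS1, with 2 control libraries, they ran from 0.65 to 1.29 for C1qa, from 0.91 to 1.60 for C4b, from 0.72 to 1.33 for C3ar1 and from 0.49 to 1.25 for C3. A change of the size that genotype made in C4b, 2.20-fold, therefore lay outside the range for C4b under inhibitor in either genotype. The interaction of C4b was 0.24 ± 0.26 SE and that of Serping1 -0.41 ± 0.44 SE on the log2 scale. The control-peptide libraries of APP/PS1 enter the genotype comparison with control peptide, the inhibitor comparison in APP/PS1 and the interaction, so these are not independent of each other.

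**Figure D2:**
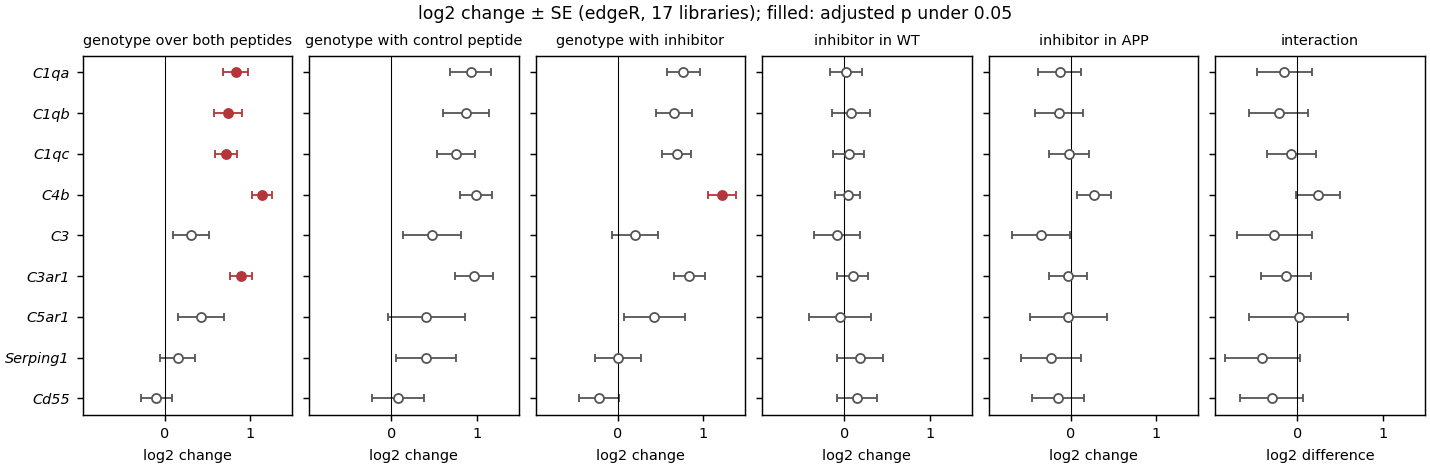
Fitted log2 change ± SE of each gene (rows) in the 6 comparisons (panels), from edgeR models of all 17 libraries; filled red points have an adjusted p under 0.05 over all genes tested. The 5 filled points over both peptides are C1qa, C1qb, C1qc, C4b and C3ar1, C4b is filled with inhibitor, and the 3 panels of inhibitor and interaction hold no filled point.

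Microglia markers moved with genotype as well. Of 7 markers, 5 were called higher in APP/PS1 by edgeR (Csf1r, P2ry12 and Cx3cr1 among them), the median log2 change of the 7 was 0.66, and none was at 0 in any library. Their summed level ran from 203 to 279 CPM in WT and from 255 to 428 CPM in APP/PS1. The APP/PS1 library with the lowest sum, replicate 1 with inhibitor at 255 CPM, was also the lowest APP/PS1 library for C1qa, C1qc and C4b. With the mean log2 level of the 7 markers as a covariate in the edgeR model, 0 of the 9 genes were called, and 2 of all 18753 genes were. The log2 genotype change was then 0.016 for C1qa, 0.022 for C1qb and 0.042 for C1qc. It was 0.54 for C3ar1 (edgeR unadjusted p = 0.0324, adjusted p = 0.344) and 0.81 for C4b (unadjusted p = 0.00201, adjusted p = 0.199). In bulk libraries such as these, more cells of a type and more RNA per cell cannot be told apart. Since the markers differ by genotype, marker level and genotype cannot be told apart in that fit.

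**Figure D3:**
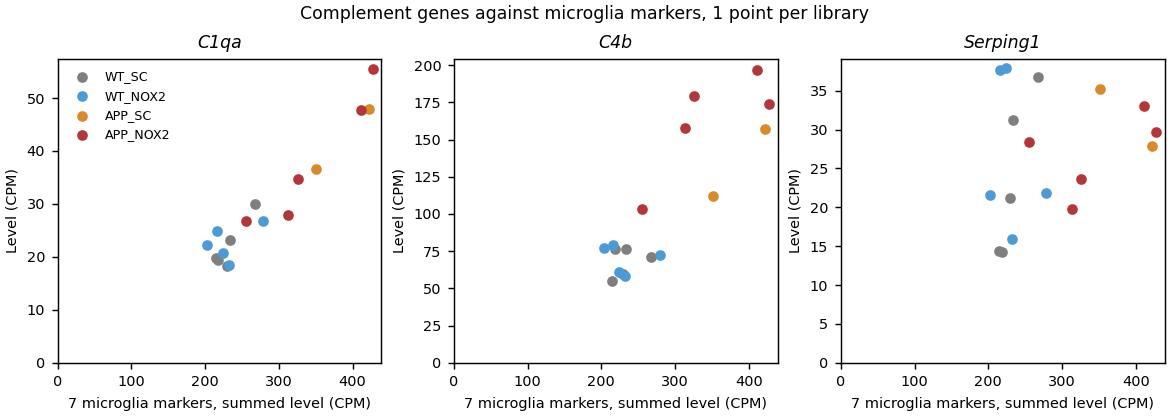
Level of C1qa, C4b and Serping1 (vertical axes, CPM) against the summed level of 7 microglia markers (horizontal axis, CPM), 1 point per library coloured by group. C1qa lies along 1 rising band through both genotypes, the APP/PS1 points of C4b lie above the WT points, and Serping1 spans its whole range among WT libraries whose marker sums are 203 to 279 CPM.

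Markers of other cell types are given beside these results. Of 6 markers of perivascular macrophages, which also make C1q, 0 were called, and their sum ran from 38.6 to 113 CPM in WT and from 41.5 to 81.5 CPM in APP/PS1. Of 6 astrocyte markers, 1 was called: Gfap, an intermediate filament that reactive astrocytes raise, at 40.3 to 79.7 CPM in WT and 104 to 180 CPM in APP/PS1 (log2 change 1.20, edgeR adjusted p = 0.000125). Of 6 neutrophil markers, 4 passed the filter and 1, Csf3r, was called, at 8.19 to 16.7 CPM in WT and 21.1 to 28.2 CPM in APP/PS1. Of these 4, 3 had a log2 change above 0, namely Csf3r (1.04), Mmp8 (0.35) and S100a9 (0.12), and S100a8 had -0.37. The neutrophil marker S100a8 stood at 0.26 to 3.18 CPM in WT and 0.164 to 1.83 CPM in APP/PS1. Ly6g, removed by the filter, was at 0 in 15 of 17 libraries. No endothelial, pericyte or smooth muscle, neuronal or fibroblast marker was called. The part of the glial and myeloid markers in the genotype differences of the complement genes was not tested beyond the covariate above.

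Each gene was also compared with the genes tested outside the 9, those without a proper name left out, by its library-to-library variation after group means were removed (log2 CPM, Pearson r over 17 libraries, no p-value). Outside the 9, the 3 genes most like C1qa were Csf1r, the receptor that microglia need to survive (r = 0.91), Armc5 (r = 0.91) and Pdgfra (r = 0.90). C1qb was most like Igf1r (0.92), Ndrg1 (0.91) and Hint1 (0.90), and C1qc was most like Mindy1 (0.97), Robo4 (0.95) and Tspyl1 (0.94). For C4b they were Hes6 (0.88), Rab3d (0.88) and Zdhhc24 (0.87), and for C3 Sema6d (0.87), Ei24 (0.84) and Zbtb8a (0.84). C3ar1 was most like Lrrn4cl (0.90), Nrros, a gene of microglia and other macrophages (0.88), and Rpl11 (0.87). For C5ar1 they were Pcbp2 (0.93), Lrrc8c (0.93) and Hdgf (0.93), for Serping1 Rpl31 (0.95), Slc6a20a (0.95) and Elmsan1 (0.94), and for Cd55 Zfp106 (0.95), Fam107b (0.95) and Lrp6 (0.94). These were picked as the highest of very many values, over few libraries, and C1qc (r = 0.94) was more like C1qa than any of the 3 named for it. Csf1r is itself one of the microglia markers above, and Pdgfra is one of the fibroblast markers.

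Among the 9 genes themselves, C4b varied with C1qa (r = 0.67) and C3ar1 (r = 0.66) and hardly with C5ar1 (r = 0.04). C5ar1, C1qb and Serping1 also varied together, with r = 0.77 for C1qb and C5ar1, 0.76 for C5ar1 and Serping1 and 0.75 for C1qb and Serping1. They were not a separate set, since C1qb gave r = 0.81 with C1qa and 0.78 with C1qc. Such values were common. Outside the 9, many genes with a proper name were more like C1qb than C5ar1 or Serping1 was. Many were also more like C5ar1 than Serping1 was, and more like C1qa than C4b was. Cd55 varied with none of the others by more than r = 0.38.

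**Figure D4:**
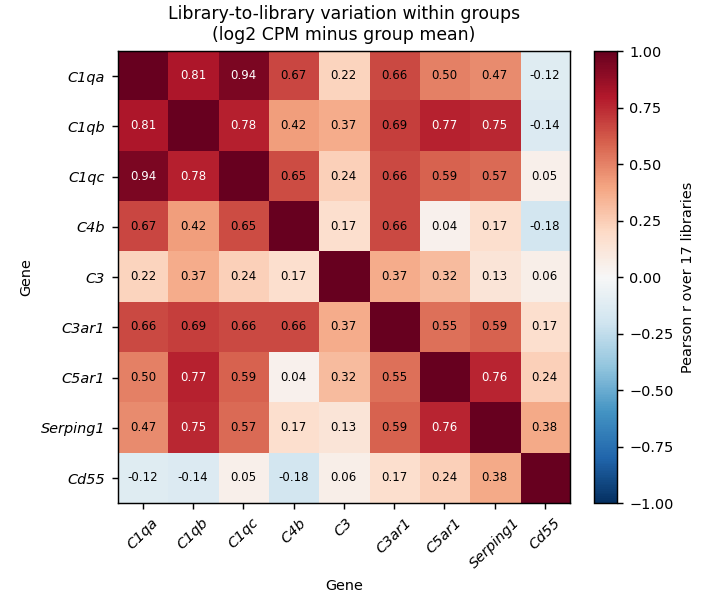
Pearson r between pairs of the 9 genes over 17 libraries, computed on log2 CPM after subtraction of each group's mean (colour scale from -1 to 1, values printed in the cells). C1qa and C1qc give the highest value, 0.94, and the row of Cd55 stays between -0.18 and 0.38.

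The rest of the pathway was covered by 48 further complement genes, of which 30 passed the filter on low counts and 18 did not. Over both peptides, 16 of the 30 had a log2 change above 0, as did 50.7% of all genes tested, and the median log2 change was 0.02. By edgeR, 3 of the 30 were called higher in APP/PS1 and 0 lower, where 0.56% of all genes tested were called higher. All 3 were receptor subunits of the leukocyte integrins that bind fragments of C3: Itgax, Itgam and their shared partner Itgb2. Itgax averaged 0.746 ± 0.366 CPM (SD, n = 10) in WT and 6.57 ± 2.50 CPM (SD, n = 7) in APP/PS1, and its log2 difference was 3.14 ± 0.27 SE (adjusted p by edgeR 1.15e-06). Itgam averaged 2.34 ± 0.822 CPM in WT and 4.26 ± 0.915 CPM in APP/PS1 (log2 change 0.88 ± 0.20 SE, edgeR adjusted p = 0.0456), and Itgb2 5.95 ± 1.02 CPM and 10.1 ± 2.87 CPM (log2 change 0.77 ± 0.16 SE, edgeR adjusted p = 0.0187). Leaving out 1 library ended the call of Itgam in 14 of 17 fits, all but those without replicate 4 of WT with control peptide, replicate 2 of WT with inhibitor or replicate 4 of APP/PS1 with inhibitor, with adjusted p up to 0.266. That of Itgb2 ended in 3, without replicate 5 of WT with inhibitor (adjusted p = 0.0548), replicate 2 of APP/PS1 with control peptide (0.133) or replicate 2 of APP/PS1 with inhibitor (0.0533), and Itgax was called in all 17. With the microglia marker covariate, the log2 change was 2.33 for Itgax (adjusted p = 0.0964), 0.67 for Itgam (adjusted p = 0.458) and 0.034 for Itgb2 (adjusted p = 0.967), and none was called. Itgax was also the 1 gene of the 30 called with control peptide (log2 change 3.41) and with inhibitor (log2 change 2.96). Of all genes tested, 0.0533% were called higher with control peptide and 0.176% with inhibitor. The call with control peptide was lost without replicate 2 of APP/PS1 with control peptide (log2 change 2.87, edgeR adjusted p = 0.0883).

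The other classes held no call by genotype. Of 15 recognition molecules and proteases, 8 were tested, the most abundant being the scavenger receptor Colec12 (63.5 CPM), the lectin pathway protease Masp1 (7.59 CPM) and the C1 protease C1s1 (6.52 CPM), with log2 changes of -0.00, 0.23 and 0.02. In the alternative pathway, properdin (Cfp, 17.1 CPM, log2 change -0.01) was tested, and factor B (Cfb) and factor D (Cfd) were removed by the filter. The terminal components were scarce: 2 of 7 were tested, C7 at 1.92 CPM and C8g at 0.589 CPM, and C8b at 0.423 CPM was not. The most abundant receptor was Cd93, a protein of endothelial cells once proposed as a C1q receptor, at 152 CPM with a log2 change of 0.14. Among regulators, 13 of 16 were tested and 0 called, the most abundant being clusterin (Clu, 562 CPM), Csmd1 (480 CPM) and vitronectin (Vtn, 309 CPM), with log2 changes of 0.10, -0.07 and 0.01. The inhibitor comparisons and the interaction called 0 of the 30 by edgeR. An edgeR unadjusted p under 0.05 was found for 0 in WT and for 1 in APP/PS1 and in the interaction, Cfp in both. Over all genes tested the shares were 1.34% in WT, 1.8% in APP/PS1 and 0.843% in the interaction, so 1 of 30 is near the background.

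**Figure D5:**
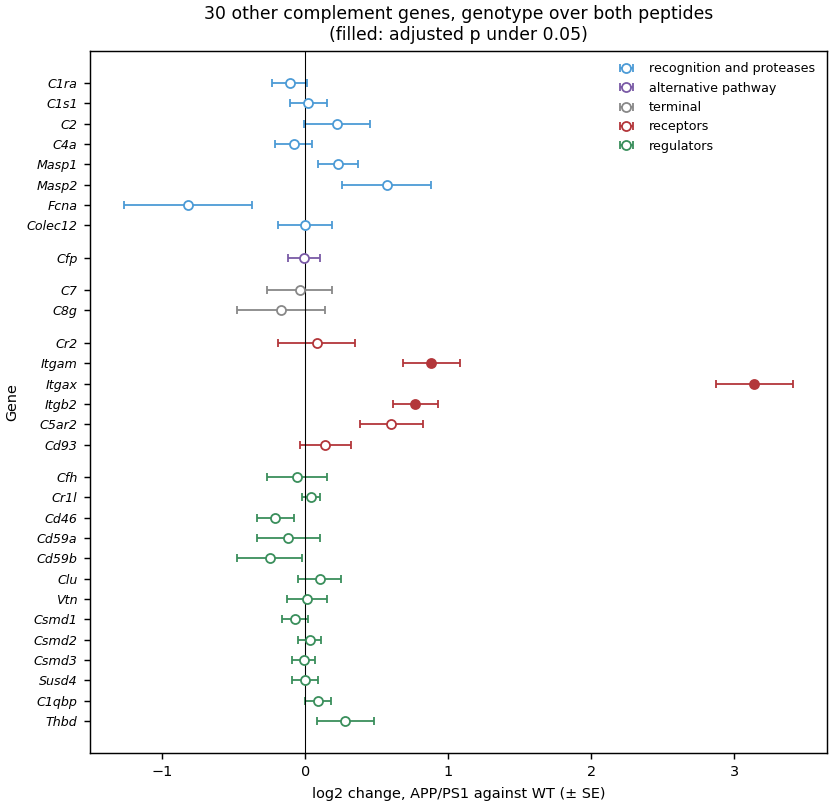
Fitted log2 change ± SE between APP/PS1 and WT over both peptides (horizontal axis) of the 30 other complement genes tested (rows), coloured by class; filled points have an edgeR adjusted p under 0.05. Itgax stands apart at 3.14, Itgam and Itgb2 are filled at 0.88 and 0.77, and the regulators lie near 0.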

How the data were processed

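RNA of 17 cortical microvessel libraries was sequenced, ribosomal RNA having been depleted and a stranded kit used, per the labels' protocols. Raw counts per Ensembl gene are what the authors deposited. The submitters' processing notes name cutadapt, STAR, HTSeq and DESeq2, without versions, and the builds GRCh37 and mm10, without roles; the annotation, and how multiply matching reads were handled, are not given in the sources used here. A further 20 columns, with names that fit no sample label, were left out. Symbols and exon lengths came from GENCODE vM21 (42250 IDs matched, 437 did not). No pair of the 136 library pairs held identical values, and the chi-square per degree of freedom within groups was 5.04 to 84.3.

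Genes were filtered with filterByExpr and counts were scaled by TMM. They were tested with edgeR 4.0.16 (R 4.3.3, limma 3.58.1), quasi-likelihood F test, two-sided, with Benjamini-Hochberg adjustment over all 18753 genes tested and a threshold of 0.05. The comparison over both peptides came from additive terms for genotype and peptide, and the other 5 from group means. All 17 libraries entered each model. The SE was computed from the estimate and its F. Levels were expressed as CPM, on library sizes scaled by TMM, with a prior count of 2 on the log2 scale. The script was tested on simulated data. The smallest measurable level was taken as 3 counts. Counting limits cover counting error only, since reads carried no molecular identifiers.

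The 9 genes, the other complement genes, the marker lists and the tests were chosen with earlier results of these data known. Among the other complement genes, those called in any comparison and the 3 of each class with the highest mean level are named. For likeness, the 3 genes with the highest r are named, the 9 genes themselves and genes without a proper name left out. C4a, Hc, Cd55b, Cfb and Cfd, and the markers named, were chosen outside this rule. Not every marker is reported by name here. Alternatives were the size factors of DESeq2 in edgeR, DESeq2 1.42.0, no filter, the microglia marker score as a covariate and leaving out each library.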

Additional observations from a re-analysis of the deposited data

How the results depend on the processing

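Depth limited C3 and C5ar1 most, with 14 to 62 and 12 to 89 counts per library, and APP/PS1 with control peptide had 2 libraries; leaving out either left 1, which was assumed to vary like the other groups. No paired analysis was possible because the labels give no replicate numbers that link libraries across groups. With the DESeq2 size factors in edgeR, each of the 9 genes kept its direction and its side of the threshold in each comparison. Over both peptides, all genes called numbered 110 by edgeR and 182 by DESeq2; with control peptide they numbered 10 and 45, and with inhibitor 34 and 61. Of the 9 genes, DESeq2 called 2 with control peptide and 4 with inhibitor, and dropping the filter on low counts gave 1 and 2; the cause was not tested. Without the filter, the log2 genotype change of Serping1 with inhibitor was 0.0061. With the microglia marker covariate, 0 of the 9 were called over both peptides, and the log2 changes of C3, C5ar1, Serping1 and Cd55 turned to -0.26, -0.38, -0.21 and 0.11; the cause was not tested.

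Leaving out 1 library at a time, 3 to 5 of the 9 genes were called over both peptides, 0 to 1 with control peptide and 1 to 2 with inhibitor, and all genes called over both peptides numbered 70 to 125, the lowest without replicate 2 of APP/PS1 with control peptide. They numbered 4 to 17 with control peptide and 15 to 38 with inhibitor. C4b was called with control peptide without replicate 1 of APP/PS1 with inhibitor (edgeR adjusted p = 0.0122). C3ar1 was called with inhibitor without replicate 2, 3 or 4 of WT with control peptide (adjusted p = 0.0449, 0.0485 and 0.04). The log2 genotype change of Cd55 ran from -0.22 to 0.00071 over both peptides and from -0.25 to 0.39 with control peptide, and that of Serping1 with inhibitor from -0.15 to 0.16. None of these was called. For the inhibitor in WT, the log2 change ran from -0.048 to 0.16 for C1qa, -0.014 to 0.34 for C1qb, -0.012 to 0.13 for C1qc, -0.031 to 0.094 for C4b, -0.36 to 0.085 for C3, -0.0044 to 0.23 for C3ar1 and -0.21 to 0.44 for C5ar1. For the inhibitor in APP/PS1 it ran from -0.32 to 0.073 for C1qa, -0.18 to 0.12 for C1qc, -0.22 to 0.18 for C3ar1, -0.28 to 0.30 for C5ar1 and -0.40 to 0.18 for Cd55. The interaction ran from -0.34 to 0.051 for C1qa, -0.23 to 0.071 for C1qc, -0.44 to 0.0099 for C3, -0.32 to 0.078 for C3ar1, -0.48 to 0.35 for C5ar1 and -0.61 to 0.033 for Cd55, so the signs of these inhibitor and interaction values rest on single libraries.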
